A study of Homo sapiens with 4 samples.

Results

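The drug uptake solute carrier genes described here were the protein-coding genes of 7 transporter families, taken by symbol: SLC15A, SLC19A, SLC22A, SLC28A, SLC29A and SLC47A followed by a number, and the SLCO genes. There were 51 such genes among 20163 protein-coding genes of the annotation (GENCODE release 44 on hg19). The samples were HL60, a human promyelocytic leukemia line labelled WT, and HL60/MX2, a drug-resistant line that had been derived from HL60 by selection with mitoxantrone. Both lines were grown in the same medium, and no drug treatment is given in the labels. Messenger RNA of each line was decapped and fragmented, fragments were enriched with an antibody against N7-methylguanosine (m7G), and regions enriched in the antibody fraction were called as peaks. Each line was represented by 1 enriched library, so the cell lines were not tested against each other. The 95% intervals are exact Clopper-Pearson intervals, which account for counting error alone, and the depth behind a peak is unknown.

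Solute carriers are membrane proteins that move small molecules down a gradient or together with ions, without burning ATP themselves. Because many drugs resemble nucleosides, vitamins, peptides or organic ions, these carriers let them into cells, whereas ABC pumps carry drugs out. In leukemia, cytarabine enters through nucleoside transporters, methotrexate through the reduced folate carrier and anthracyclines in part through organic cation carriers. Many SLC22A and SLCO genes are best known from liver, kidney, gut or brain barriers rather than from blood cells. In mRNA, m7G is found in the cap and also inside the transcript, and the decapping step of the protocol was meant to leave the internal m7G.

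In HL60, 20 of the 51 genes carried a listed peak, and in HL60/MX2 19 of the 51 did. They held 30 peaks in the HL60 list and 24 in the HL60/MX2 list. Peaks were listed for both lines in 12 genes, for HL60 only in 8, for HL60/MX2 only in 7 and for neither in 24. The 12 included both thiamine carriers, a pair of concentrative nucleoside carriers, the doxorubicin carrier SLC22A16 and 3 SLCO genes, while SLC22A3, an organic cation carrier, had 4 peaks in HL60 and 0 in HL60/MX2.

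Sequences are printed for the overlapping peaks of SLCO1C1 and for the coding peak with the highest score in each line. The HL60 peak of SLC28A3, printed to compare its positions between the lines, and a peak of the doxorubicin carrier were chosen after their values were seen. All were read from the GRCh37 (hg19) reference genome on the strand of the gene. SLCO1C1, the thyroxine carrier of the brain barrier, had overlapping peaks in both lists within its exon 4. The HL60 peak (chr12:20854252-20854393, plus strand) is printed whole, and the capitals mark the 70 bases that the HL60/MX2 peak covered.
SLCO1C1, HL60: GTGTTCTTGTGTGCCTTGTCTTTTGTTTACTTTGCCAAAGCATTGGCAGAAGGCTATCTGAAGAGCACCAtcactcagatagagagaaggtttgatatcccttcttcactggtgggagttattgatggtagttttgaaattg

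SLC28A3, a sodium-driven carrier of nucleosides and nucleoside drugs, had 1 peak in each line, at separate positions. The HL60 peak (chr9:86914496-86914640) and the HL60/MX2 peak (chr9:86894949-86894988) both lay on the minus strand, and the latter scored highest of all peaks in these genes in HL60/MX2. SLCO2B1, a carrier of steroid sulfates and statins, had the coding peak with the highest score in HL60 (chr11:74875008-74875039, plus strand). SLC22A16, a carnitine carrier that also takes up doxorubicin, is shown by its HL60/MX2 peak (chr6:110777920-110778180, minus strand). The capitals mark matches to the motifs that the study named, written in DNA letters. The first, called the CTG motif here, is CTGGA or CTGGG, and also CTGTA or CTGTG. The second, called the GGAA motif, is GGAAA, with GGAAG as its other form.
SLC28A3, HL60: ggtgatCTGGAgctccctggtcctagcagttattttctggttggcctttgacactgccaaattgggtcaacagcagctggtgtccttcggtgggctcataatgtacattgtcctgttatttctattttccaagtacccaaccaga
SLC28A3, HL60/MX2: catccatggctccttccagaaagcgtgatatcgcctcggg
SLCO2B1, HL60: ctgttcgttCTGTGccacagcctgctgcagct
SLC22A16, HL60/MX2: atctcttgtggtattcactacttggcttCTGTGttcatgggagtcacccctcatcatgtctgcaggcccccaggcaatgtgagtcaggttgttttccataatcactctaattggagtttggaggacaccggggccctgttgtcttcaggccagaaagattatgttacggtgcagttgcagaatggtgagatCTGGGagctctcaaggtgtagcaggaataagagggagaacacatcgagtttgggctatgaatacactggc

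The CTG motif occurred once in the SLC28A3 peak of HL60 and once in the SLCO2B1 peak, 2 times in the SLC22A16 peak, and not in the SLC28A3 peak of HL60/MX2. The GGAA motif occurred in none of these 4 sequences, and neither motif occurred in the SLCO1C1 peak. Among listed HL60 peaks whose length was within 10% of the SLC28A3 peak, 62.4% held the CTG motif and 51.1% held the GGAA motif. The CTG motif was held by 78.7% of peaks as long as that of SLC22A16, by 23.8% of those as long as the HL60/MX2 peak of SLC28A3 and by 15.8% of those as long as that of SLCO2B1. Over all peaks of the family genes, searched on the strand of the gene, the CTG motif was in 19 of 30 HL60 peaks (63.3%, 43.9-80.1%) and in 13 of 24 HL60/MX2 peaks (54.2%, 32.8-74.4%). Listed peaks of like length gave 51.7% and 60.3%, inside these intervals. The GGAA motif was in 12 peaks of HL60 (40.0%, 22.7-59.4%) and in 9 of HL60/MX2 (37.5%, 18.8-59.4%), where peaks of like length gave 41.1% and 44%. Neither motif thus stood apart from peaks of like length beyond counting error.

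The share of genes with a peak was 39.2% (25.8-53.9%) in HL60, against 26.4% of all protein-coding genes, and 37.3% (24.1-51.9%) in HL60/MX2, against 28.5%. Both intervals included the share of all genes. The family genes had a median of 13 exons after exons of all isoforms were merged, against 9 over all genes, and genes with more exons carried a peak more often. Each member was therefore set beside the other protein-coding genes whose number of merged exons differed by at most 2, between 1194 and 6040 genes for a member. Summed over the 51 members, these like genes gave 14.9 genes with an HL60 peak and 16.4 with an HL60/MX2 peak, or 29.2% and 32.2% of the members. The counts of 20 and 19 lay above these values in both lists, and the intervals of the shares included them.

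Peaks for both lines were listed in 23.5% of the members (12.8-37.5%), against 12% of all genes and 13% of genes of like exon number, or 6.64 of the 51. The lower bound of the interval lay between these shares. A peak in HL60 only was found in 15.7% of the members, against 14.4% of all genes, and a peak in HL60/MX2 only in 13.7%, against 16.5%. No peak in either list was found in 47.1% of the members (32.9-61.5%), against 57.1% of all genes. The members with a peak in HL60 also had one in HL60/MX2 in 60.0% of cases (36.1-80.9%), against 45.5% over all genes, and in the other direction the shares were 63.2% (38.4-83.7%) and 42.1%. Apart from peaks for both lines, the intervals of these shares included the share of all genes. When only peaks at or above the median score of their list were kept, 15 members had a peak in HL60, 29.4% (17.5-43.8%) against 15.4% of all genes under the same condition, where genes of like exon number gave 8.32. In HL60/MX2 8 members did, 15.7% (7.02-28.6%) against 16.2%, where like genes gave 9.20. For both lines 4 members did, 7.84% (2.18-18.9%) against 4.75%, where like genes gave 2.39. Under this condition the HL60 interval lay above the share of all genes, and those for HL60/MX2 and for both lines included it.

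In members of 5 to 9 exons, 1 of 7 carried a peak in each list, 14.3%, where 19.4% of other genes of that size did in HL60 and 21.6% in HL60/MX2. In those of 10 to 12 exons, 6 of 16 did in each list, 37.5% against 26.1% and 28.5%. In those of 13 to 16 exons, 6 of 14 did in HL60, 42.9% against 29.9%, and 4 in HL60/MX2, 28.6% against 35.2%. In those of 17 to 19 exons, 4 of 8 did in each list, 50% against 35.3% and 37.3%, and in those of 20 to 24 exons 3 of 6 in HL60, 50% against 40.4%, and 4 of 6 in HL60/MX2, 66.7% against 44.2%. The shares of other genes rose with the number of merged exons in both lists. The lowest share of the members, at 5 to 9 merged exons, rests on 1 of 7 genes and on this way of counting. By exons of the longest coding transcript some members would change group. SLC19A3, with peaks for both lines, had 6 such exons but 10 merged, and SLC19A1, without a peak, had 6 but 17 merged.

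**Figure D1:**
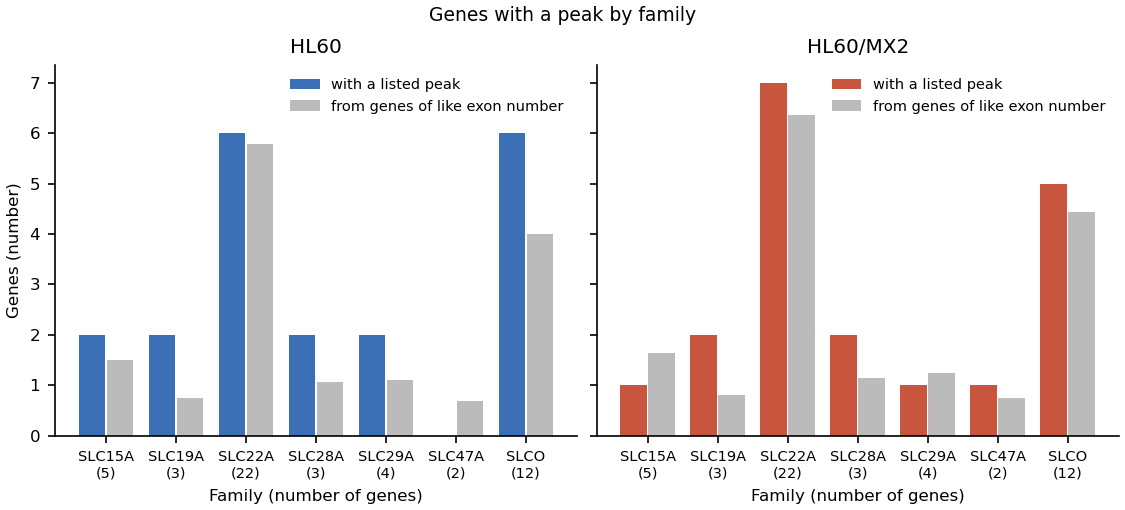
Genes with a listed peak in each of the 7 families (coloured bars, number of genes) beside the number given by other protein-coding genes of like exon number (grey bars), for HL60 on the left and HL60/MX2 on the right. SLCO had 6 genes with a peak in HL60 beside 4.00, and the SLC22A counts of 6 and 7 lay beside 5.79 and 6.37.

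By family, the SLC22A counts were close to those of like genes. Its 22 genes included 6 with an HL60 peak (5.79 from genes of like exon number) and 7 with an HL60/MX2 peak (6.37). Among the 12 SLCO genes the counts were 6 (4.00) and 5 (4.44), and among the 3 SLC19A genes 2 (0.746) and 2 (0.810). Of the 3 SLC28A genes, 2 had peaks for both lines (1.07 and 1.15 from like genes for a single line). The SLC15A family counted 2 of 5 genes for HL60 (1.5) and 1 for HL60/MX2 (1.65), and the SLC29A family 2 of 4 (1.10) and 1 (1.24). Of the 2 SLC47A genes, 1 had a peak, in HL60/MX2 (0.756), and 0 in HL60 (0.678). Families of this size cannot separate such counts from those of like genes.

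**Figure D2:**
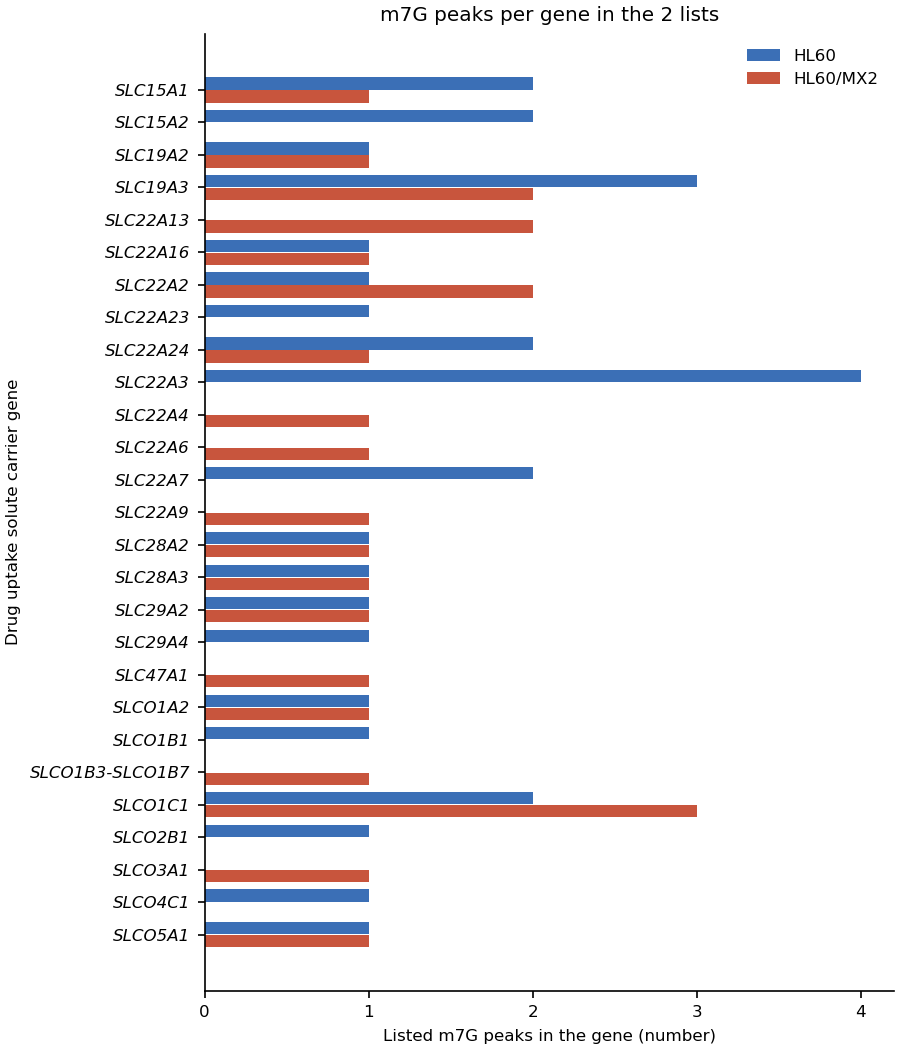
Number of listed m7G peaks (horizontal axis) in each of the 27 genes listed for at least 1 line, with blue bars for HL60 and red bars for HL60/MX2. SLC22A3 had 4 HL60 peaks and 0 HL60/MX2 peaks, and SLCO1C1 had 2 and 3.

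Nucleosides and their drug analogues enter cells through the concentrative carriers (SLC28A) and the equilibrative carriers (SLC29A). SLC28A3 had an HL60 peak of 145 bp over the whole of exon 6 of 18, with a score of 271, above 64.9% of its list. Its HL60/MX2 peak of 40 bp in exon 16 had a score of 1282 and ranked 270 of 8122, above 96.7% of the list. Scores have no stated scale and were read only as ranks within a list, and these ranks put the HL60/MX2 peak higher in its list than the HL60 peak in its own. The 2 peaks were 1060 nt apart along the mRNA.

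SLC28A2, the purine nucleoside carrier, also had 1 peak in each list. The HL60 peak (chr15:45554213-45554285) was in exon 4 of 18 and scored 60.3, and the HL60/MX2 peak (chr15:45561536-45561671) was in exon 14 and scored 107. Both were low, above 5.56% and 18.9% of their lists, and 1125 nt apart along the mRNA. SLC29A2, an equilibrative carrier, had a coding peak of 60 bp (chr11:66133407-66133466) in exon 11 of 13 in HL60, which scored 109, above 24.8% of the list. In HL60/MX2 its peak (chr11:66139047-66139291) lay at the start codon and scored 336, above 59.9% of the list, with a GC content of 75.5%. Only 36 of its 245 bp lay on the longest coding transcript, and it lay 983 nt from the HL60 peak along that transcript.

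SLC29A4, a monoamine carrier of the plasma membrane, had a peak of 33 bp in HL60 only, with a score of 218. Of the 9 stretches of 25 bases in that peak, 3 also occurred in transcripts of SLC29A4P1 and SLC29A4P2, pseudogene copies, so its gene of origin is uncertain. SLC29A1, the equilibrative carrier best known for cytarabine uptake, SLC29A3, which acts in lysosomes, and SLC28A1, which favours pyrimidine nucleosides, had no peak in either list.

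Among the SLC19A genes, SLC19A1, the reduced folate carrier that takes up methotrexate, had no listed peak. Both thiamine carriers had peaks in both lists. SLC19A2 had a coding peak of 193 bp in exon 3 of 6 in HL60 (chr1:169439202-169439394), which scored 204, above 51.5% of the list. Its HL60/MX2 peak of 221 bp (chr1:169433601-169433821) was in the 3'UTR and scored 120, above 23% of the list. The 2 peaks were 1729 nt apart along the mRNA. SLC19A3 had 3 peaks in HL60. That at the stop codon (chr2:228551958-228552289, 332 bp) scored 249.99, above 61.6% of the list. That in exon 5 (chr2:228552947-228553023, 77 bp) scored 107, above 24% of the list, and that outside the longest coding transcript (chr2:228582706-228582745, 40 bp, GC content 70.0%) scored 97.9, above 21.1%. In HL60/MX2 the gene had a 3'UTR peak (chr2:228551389-228551707) with a score of 458, above 72.8% of the list. Of its 319 bp, 157 lay on the longest coding transcript. The exon 3 peak of HL60/MX2 (chr2:228563452-228563656, 205 bp) scored 449, above 71.9% of the list. The HL60/MX2 peaks thus stood higher in their list than the HL60 peaks in theirs, and the nearest peaks of the lines were 193 nt apart along the mRNA.

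The SLC22A family holds the organic cation carriers SLC22A2 and SLC22A3, which lie side by side on chromosome 6. SLC22A3 had 4 coding peaks in HL60, in exons 3, 4, 5 and 6 of its 11 exons. The exon 3 peak (chr6:160828073-160828227, 155 bp) covered the whole exon and scored 316, above 71.8% of the list. The exon 4 peak (chr6:160829935-160829953, 19 bp) scored 248, and the exon 5 peak (chr6:160831761-160831820, 60 bp) scored 119, above 60.9% and 28.1% of the list. The exon 6 peak (chr6:160857812-160857909, 98 bp) again covered the whole exon and scored 75.8, above 13% of the list. The exon 4 and exon 5 peaks met at the junction of these exons, at nt 881-899 and 900-959 of the spliced mRNA. They were counted as separate peaks, as listed, and whether they are parts of the same stretch was not tested. The scores fell from exon 3 to exon 6, and HL60/MX2 had 0 peaks in this gene. Of all protein-coding genes, 45 (0.223%) had 4 or more HL60 peaks and 0 HL60/MX2 peaks, and SLC22A3, singled out after its values were seen, was the only member among them. Its place there rests on taking the exon 4 and exon 5 peaks as separate.

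SLC22A2, the kidney carrier, had 1 HL60 peak in exon 5 of 11 (chr6:160668216-160668281, 66 bp), which scored 222, above 55.5% of the list. In HL60/MX2 it had 1 peak in exon 2 (chr6:160677674-160677749, 76 bp), which scored 406, and 1 outside the longest coding transcript (chr6:160681551-160681719, 169 bp), which scored 646, above 67.5% and 85.4% of the list. None of these peaks overlapped each other, and the nearest on the transcript were 401 nt apart. SLC22A16 had a peak of 435 bp in HL60 (chr6:110746084-110746518), which scored 220, above 55.2% of the list. Of this peak, 205 bp lay on the longest coding transcript, in its last exon. Its HL60/MX2 peak, printed among the sequences, was in exon 2 of 8 and scored 133, above 26% of the list. The peaks of the lists thus lay toward opposite ends of the coding sequence, 1167 nt apart.

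SLC22A4, which takes up ergothioneine, had a peak of only 5 bp in HL60/MX2, and its neighbour SLC22A5, the carnitine carrier, had none. That peak (chr5:131667539-131667543) touched an exon end and scored 245, above 47.8% of the list.

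Several SLC22A genes carry organic anions. SLC22A7, a liver and kidney carrier, had 2 coding peaks in HL60 and 0 in HL60/MX2. The exon 7 peak (chr6:43269267-43269347, 81 bp, 27 of them on the longest coding transcript) scored 421, above 83.5% of the list, and the exon 10 peak (chr6:43271776-43272132, 357 bp, 207 of them on it) scored 201, above 50.9%. SLC22A13, which carries nicotinate and urate, had 0 peaks in HL60 and 2 in HL60/MX2, in exon 5 (chr3:38316861-38316981, 121 bp, the whole exon) and in the 3'UTR (chr3:38319251-38319454, 204 bp), both with a score of 148, above 29.6% of the list. SLC22A6, a main organic anion carrier of the kidney, had 1 peak in HL60/MX2 only, a 5'UTR peak (chr11:62752381-62752495, 115 bp, 49 of them on the longest coding transcript) that scored 245, above 47.8% of the list. SLC22A9, a liver carrier of steroid sulfates, had 1 peak in HL60/MX2 only, over the whole of exon 6 (chr11:63149631-63149749), which scored 112, above 20.6%. SLC22A24, which carries steroid conjugates, had an exon 6 peak (chr11:62863473-62863578, 106 bp) and an exon 7 peak (chr11:62850715-62850916, 202 bp) in HL60, which scored 310.4 and 55.8, above 71.0% and 3.31% of the list. Its HL60/MX2 peak covered exon 3 (chr11:62886653-62886807, 155 bp) and scored 168, above 33.9%, 293 nt from the nearest HL60 peak along the mRNA. SLC22A23, an orphan carrier, had 1 peak of 72 bp in HL60 (chr6:3438718-3438789, score 343, above 75.6% of the list), outside the longest coding transcript.

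In the row of 6 SLC22A genes on chromosome 11 between 62703857 and 63177766, an HL60 peak was listed for 1 gene and an HL60/MX2 peak for 3, where genes of like exon number gave 1.49 and 1.66. SLC22A genes without a peak in either list included SLC22A5, SLC22A8, SLC22A10, SLC22A11, SLC22A12, SLC22A14, SLC22A15, SLC22A17, SLC22A18, SLC22A25 and SLC22A31. Of these, SLC22A8 takes up organic anions in the kidney and SLC22A11 and SLC22A12 carry urate.

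SLC47A1, a proton-driven exporter of organic cations in kidney and liver that works beside the SLC22A carriers, had 1 peak in HL60/MX2. It lay at the stop codon (chr17:19481249-19481488, 240 bp, 101 of them on the longest coding transcript) and scored 646, above 85.4% of the list. Of its 25-base stretches, 12.5% also occurred in transcripts of other genes, many of them outside the solute carriers, such as ALDH2, KSR2 and SHOX. SLC47A2, its kidney relative, had none.

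The SLC15A genes carry di- and tripeptides and drugs of peptide shape. SLC15A1, the gut carrier, had HL60 peaks in exon 14 of 23 (chr13:99361826-99361914, 89 bp, the whole exon) and exon 16 (chr13:99358388-99358485, 98 bp), which scored 260.1 and 271, above 63.3% and 64.9% of the list. Its HL60/MX2 peak was in exon 9 (chr13:99368162-99368214, 53 bp) and scored 190, above 37.7%, and it lay 285 nt from the nearest HL60 peak along the mRNA. SLC15A2, the kidney carrier, had 2 peaks in HL60 only, in exon 2 of 22 (chr3:121615253-121615340, 88 bp, the whole exon) and exon 21 (chr3:121659231-121659283, 53 bp). Both were low, with scores of 63.02 and 89.9, above 6.74% and 17.8% of the list. The lysosomal carriers SLC15A3 and SLC15A4, which are expressed in immune cells, had no peak, and neither had SLC15A5.

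Organic anion transporting polypeptides (SLCO) take up hormones, bile salts and large anionic drugs. SLCO1C1 had 2 peaks in HL60 and 3 in HL60/MX2, the most of any member in that list. In exon 4 the HL60 peak of 142 bp covered the whole exon with a score of 429, above 84.2% of the list, and the HL60/MX2 peak of 70 bp had the same start with a score of 260, above 49.9%. The other HL60 peak covered exon 6 (chr12:20864320-20864444, 125 bp) and scored 131, above 32.0% of the list. Another HL60/MX2 peak covered the next exon (chr12:20868073-20868219, 147 bp) and scored 84.4, above 12.1% of the list. The last HL60/MX2 peak lay at the stop codon (chr12:20905413-20905636, 224 bp, 135 of them on the longest coding transcript) and scored 588, above 82.3%.

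SLCO5A1, an orphan carrier, had a coding peak of 199 bp with the same start and end for both lines (chr8:70617266-70617464, exon 6 of 10). Its score was 186 in HL60, above 47.9% of the list, and 50.5 in HL60/MX2, above 0.105% of the list, at rank 8114 of 8122. It was the lowest score of a member in HL60/MX2. The only position held exactly in common was therefore a middling peak of HL60 and among the last peaks of HL60/MX2.

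SLCO1A2, a carrier at the blood-brain barrier, had a peak of 48 bp in the 5'UTR in HL60 (chr12:21527412-21527459, score 64.3, above 7.13% of the list). In HL60/MX2 its peak of 215 bp lay in the 3'UTR (chr12:21420431-21420645, score 676, above 86.7%), 3990 nt away in the mRNA. SLCO1B1, the liver carrier of statins and methotrexate, had a 3'UTR peak of 256 bp in HL60 only (chr12:21392209-21392464), which scored 197, above 50.1% of the list. SLCO1B3 had no peak of its own.

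The read-through model SLCO1B3-SLCO1B7 carried 1 peak in HL60/MX2, over a whole exon outside its longest coding transcript (chr12:21205030-21205195, score 259, above 49.6% of the list). All 142 stretches of 25 bases in this peak occurred in SLCO1B7 transcripts, 41.5% also in SLCO1B3 and 9.86% in SLCO1B1. Its gene of origin was therefore uncertain.

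SLCO4C1, a kidney carrier of digoxin, had the longest peak and the highest score of the members in HL60, a 3'UTR peak of 1029 bp (chr5:101570358-101571386) that scored 872, above 97.5% of the list. SLCO2B1 followed with 687, above 95.1%, for its 32 bp in exon 3. The lowest score of a member in HL60 was that of SLC22A24 at 55.8, above 3.31% of the list. SLCO3A1, which is widely expressed, had 1 peak of 51 bp in HL60/MX2 (chr15:92397590-92397640, score 407, above 67.8% of the list), outside the longest coding transcript. SLCO2A1, the prostaglandin carrier, SLCO4A1, a carrier of thyroid hormone, and the testis gene SLCO6A1 had none. In the row of 5 SLCO1 genes on chromosome 12, 3 genes had a peak in each line, where genes of like exon number gave 1.82 and 2.0.

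**Figure D3:**
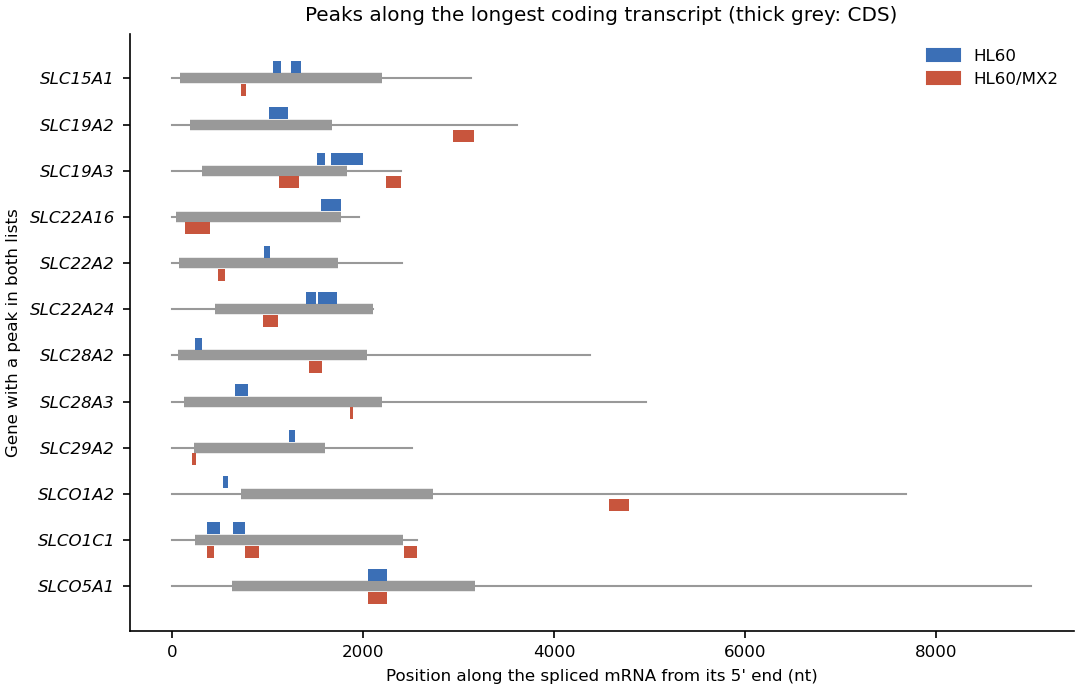
The peaks of the 12 genes listed for both lines along the longest coding transcript, in nt from the 5' end, with HL60 above the line in blue and HL60/MX2 below in red; the thick grey part is the CDS. Peaks outside that transcript are not drawn. In SLCO1C1 and SLCO5A1 the colours overlap, and in the other 10 genes they lie apart.

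The position of a peak was seldom held in common. Overlapping peaks were found in 2 of the 12 genes listed for both lines, 16.7% (2.09-48.4%), against 461 of 2423 genes, 19%, among all genes. SLC19A3 also had peaks of both lines in the same exon, without overlap. In the 10 genes without overlap the closest peaks were between 193 nt (SLC19A3) and 3990 nt (SLCO1A2) apart along the mRNA. Over peaks, 2 of the 30 HL60 peaks overlapped an HL60/MX2 peak, 6.67% (0.818-22.1%), where 6.13% of the whole HL60 list did.

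Each peak was placed on the transcript of its gene with the longest coding sequence (CDS), where the 100 nt before and after either codon that bounds the CDS formed a start codon and a stop codon class. In HL60, 24 of 28 classed peaks lay in the CDS. This was 85.7% (67.3-96.0%), against 64.0% (62.8-65.2%) of all classed HL60 peaks, and the intervals did not overlap. Without the 4 peaks of SLC22A3 the share was 83.3% (62.6-95.3%), and with 1 peak per gene it was 78.9% (54.4-93.9%) against 61.0% of the list. Both of these intervals included the share of the list. In HL60/MX2, 13 of 21 lay in the CDS, 61.9% (38.4-81.9%), against 59.8% of the list. The CDS made up 42.1% of the transcript length of the members with an HL60 peak and 46.8% for HL60/MX2. The 3'UTR held 2 peaks in HL60, 7.14% (0.877-23.5%) against 21% of the list, and 4 in HL60/MX2, 19% (5.45-41.9%) against 18.2%. At the start codon there were 0 of 28 peaks in HL60, where a share of up to 12.3% is allowed by the interval, and 1 in HL60/MX2, in SLC29A2. Outside the longest coding transcript lay 2 peaks in HL60 (SLC19A3 and SLC22A23) and 3 in HL60/MX2 (SLC22A2, SLCO3A1 and SLCO1B3-SLCO1B7). The CDS intervals of the lines overlapped each other.

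**Figure D4:**
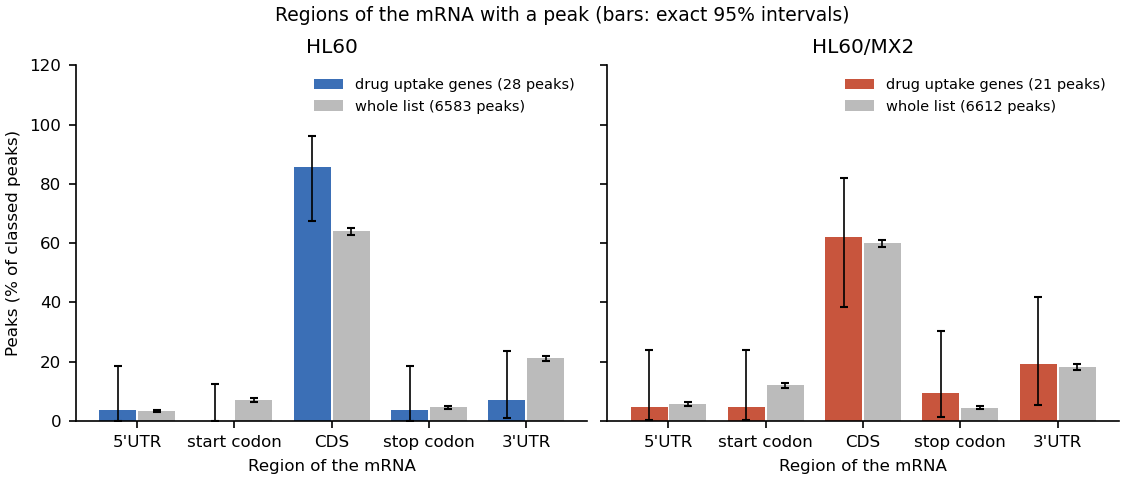
Share of peaks in each region of the mRNA (% of classed peaks) for the family genes (coloured) and the whole list (grey), HL60 on the left and HL60/MX2 on the right; error bars are exact 95% intervals. The CDS held 85.7% of the HL60 peaks of the family genes against 64.0% of the list, and 61.9% against 59.8% in HL60/MX2.

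Peaks of the members started or ended at an exon end in 26 of 30 cases in HL60, 86.7% (69.3-96.2%), against 69.8% of the list. In HL60/MX2 16 of 24 did, 66.7% (44.7-84.4%), against 70.2%. Shares of the list in this paragraph are over its peaks with a gene, 7740 in HL60 and 7804 in HL60/MX2. A whole exon was covered by 8 peaks in HL60, 26.7% against 23.6% of the list, and by 5 in HL60/MX2, 20.8% against 21.2%. The median length was 93.5 bp in HL60, against 128 bp over all peaks with a gene, and 160.5 bp in HL60/MX2, against 132 bp. The median GC content was 46.6% and 45.7%, against 45.2% and 48.1%. The interval for exon ends reached just under the share of the list in HL60 and held it in HL60/MX2.

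The scores of the members were spread over the range of each list. In HL60 they ran from 55.8 to 872, with a median above 53.1% of the list, and in HL60/MX2 from 50.5 to 1282, with a median above 48.7%. At or above the middle of the list were 18 of 30 peaks (60.0%, 40.6-77.3%) in HL60 and 10 of 24 (41.7%, 22.1-63.4%) in HL60/MX2, and both intervals included 50%. In HL60, 13 of the 20 genes had a single peak, 65.0%, against 70.6% of all genes with a peak, and 15 of 19 did in HL60/MX2, 78.9% against 74.7%.

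**Figure D5:**
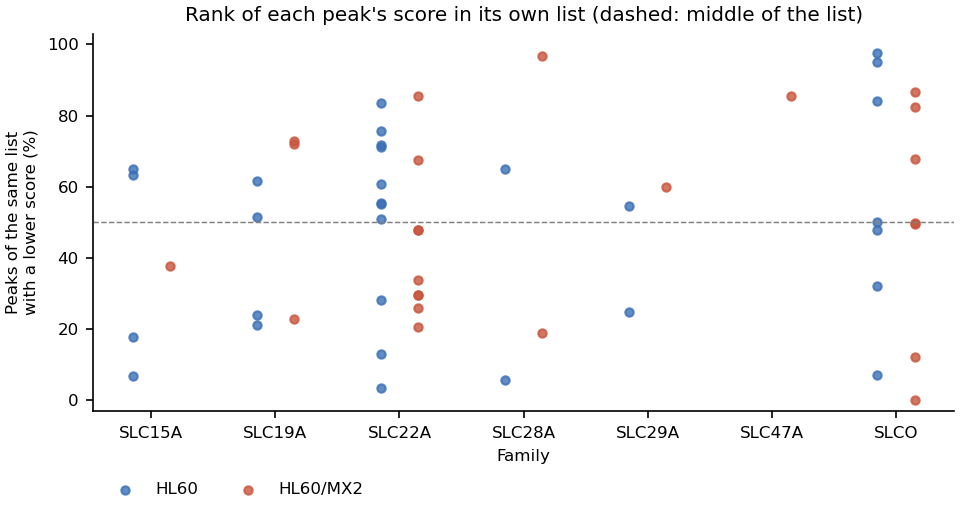
Each member peak by family (horizontal axis) and by the percentage of peaks in its own list that had a lower score (vertical axis), blue for HL60 and red for HL60/MX2; the dashed line is the middle of the list. Peaks of both lists fill the range, from 3.31% to 97.5% in HL60 and from 0.105% to 96.7% in HL60/MX2.

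Grouped by the tissues in which the genes are known to be expressed, which was background knowledge and was not measured here, 23 genes were known from blood cells or many tissues. An HL60 peak was listed for 10 of these (6.62 from genes of like exon number) and an HL60/MX2 peak for 6 (7.32). This group included SLC15A2 and SLCO4C1, which are also known from kidney, and without them the counts were 8 (5.92) and 6 (6.52) of 21 genes. SLC15A5, SLCO5A1 and the read-through model were in neither group. Of 25 genes known mainly from liver, kidney, gut, brain or testis, 9 (7.34) and 11 (8.04) had one. In the first group 11 of the 23 genes had no peak in either list, and in the second 12 of the 25. The first group held SLC22A3, SLC29A2 and SLC28A3 with a listed peak, and SLC29A1, SLC19A1, SLC22A5 and SLC15A4 without. In the second, SLC22A6, SLC22A7, SLCO1B1 and SLC15A1 carried listed peaks, and SLC22A8, SLC22A11, SLC22A12 and SLC47A2 did not. Among the carriers of antileukemic drugs, SLC29A2, SLC28A3 and SLC22A16 had peaks in both lists, SLCO1B1 in HL60 only, and SLC29A1, SLC28A1, SLC19A1 and SLCO1B3 in neither.

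Beside these carriers, the other 299 SLC genes carried a peak in 94 cases in HL60, 31.4% (26.2-37.0%), and in 93 cases in HL60/MX2, 31.1% (25.9-36.7%). Genes of like exon number gave 84.6 and 93.1. The 25 efflux genes ABCB, ABCC and ABCG, which carry drugs out and have a median of 31 exons, had a peak in 10 and 11 cases, where like genes gave 11.3 and 12.3. The intervals of both lists overlapped with those of the uptake genes.

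A list of 35 genes that handle antimetabolites and anthracyclines in the cell or are their targets held 6 genes with an HL60 peak, 17.1% (6.56-33.6%), where genes of like exon number gave 9.78. It held 5 with an HL60/MX2 peak, 14.3% (4.81-30.3%), where like genes gave 10.8. Over all protein-coding genes the shares were 26.4% in HL60 and 28.5% in HL60/MX2, inside these intervals. As a share of the 35 genes, the count from like genes lay inside the HL60 interval and just above the HL60/MX2 interval. In HL60 the genes with a peak included DCK, which activates cytarabine, TK2, a mitochondrial nucleoside kinase, and ATIC of purine synthesis. TPMT, which methylates thiopurines, and NQO1, a quinone reductase, were also among them. In HL60/MX2 they included SAMHD1, which degrades activated cytarabine, NQO1 and the topoisomerase genes TOP1 and TOP2B. NQO1 alone had a peak in both lists. TOP1 had 3 peaks in HL60/MX2 and TOP2B had 1, while the topoisomerase gene TOP2A had no peak in either line. The lists give no expression level, so the cell type could not be checked by its markers, and of 12 myeloid genes CTSG alone carried an HL60 peak, and CD33, CSF3R and ITGAM an HL60/MX2 peak, where genes of like exon number gave 2.45 and 2.68 genes.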

How the data were processed

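The series holds 4 libraries, an input and an enriched one per cell line, and the 2 deposited peak lists of the enriched libraries were used. By the study's methods and the labels, trimming used Cutadapt 1.9.3, alignment to hg19 used Hisat2 2.0.4 (the submitters' processing notes also name STAR), peaks came from MACS (version and settings not given in the sources used here), and the authors retained those that met exons of coding genes. The score of each peak is as deposited by the authors, from 50 upward, without a stated scale. The files hold no read counts, so the depth is unknown. Of the 8070 peaks of HL60 and 8122 of HL60/MX2, 7740 and 7804 overlapped a same-strand exon of a protein-coding gene. Each of these went to the gene whose exons it covered most (ties by gene identifier). The percentage of a list with a lower score is over all its peaks and counts tied scores by 0.5. Positions count from 1. The length of chromosome 1 (249250621 bp) was checked for the build. Regions are those of the transcript with the longest CDS. The 25-base stretches of each member peak were looked up in transcripts of other genes. The SLC22A3 peak of 19 bp and the SLC22A4 peak of 5 bp were too short for this and were not checked. Peaks were shared from 1 bp of overlap. Members, lists and comparisons were chosen with earlier results of these data known. Full values are given for genes with peaks in both lists, with several peaks in a list, with the highest or lowest score or with known antileukemic drugs; other members are named, except that some genes are not reported here. Steps were tested on simulated data. Python 3.11.15, numpy 2.4.6, scipy 1.17.1 and matplotlib 3.10.9 were used. Alternatives covered score, peak length, gene assignment, exon matching, region classes, overlap and, chosen after seeing the data, leaving out SLC22A3, taking 1 peak per gene, counting genes of like exon number under the score limit and leaving 2 kidney genes out of the blood group.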

Additional observations from a re-analysis of the deposited data

How the results depend on the processing

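Of 53 values recomputed under the alternatives, 40 stayed within 1.5 times the count or within the interval given. With only scores at or above the list median, 15 members had a peak in HL60, 8 in HL60/MX2 and 4 in both lists. Like genes under the same limit gave 8.32, 9.20 and 2.39. The HL60/MX2 count thus lay below that of like genes, whereas with all peaks it lay above. The peaks in members fell to 18 for HL60 and 11 for HL60/MX2, and the HL60 peaks overlapping an HL60/MX2 peak to 1. The median score percentiles were 64.1 and 72.8, which this limit raises by itself since it removes low scores. Without the SLC22A family 29 genes remain. Of these, 14 had a peak in HL60, where genes of like exon number gave 9.09, and 12 in HL60/MX2, where like genes gave 10.0. They held 19 HL60 peaks and 15 HL60/MX2 peaks. Requiring an overlap of 50% of both peaks left 1 shared peak. Like genes chosen by exon length gave 14.0 and 15.3 members, and by exons of the longest coding transcript 15.3 and 16.8. Placing a peak by its midpoint gave a CDS share of 80.8% in HL60 and 72.2% in HL60/MX2. The share of the whole list by midpoint is not given, so these values cannot be set against the list. No paired analysis was possible because each cell line has 1 enriched library and the result comes from no test. The depth behind a peak is unknown, so a gene without a listed peak cannot be called unmodified.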
